A study of Mus musculus with 2 samples.

Results

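The polo-like kinases, Aurora A and proteins that work with them were described in mouse liver after adenoviral delivery of PDK4. The set held 8 genes, listed by name: Plk1, Plk2, Plk3, Plk4, Aurka (Aurora kinase A), its activator Tpx2, Nek2 and Melk. They were 8 of 18193 genes named on the array, and 18 probe sets measured them (a probe set is a group of short probes for the same transcript). The genes were listed with the differences between these arrays already known, so their values are a description and were not tested. The Ad-PDK4 group was a pool of livers from 3 mice given a PDK4 overexpressing adenovirus. The Ad-control group was a pool of livers from 4 mice given the empty adenovirus vector. All mice were C57BL/6J, aged 2 months, and received 1000000000 plaque-forming units into the tail vein 3 days before the liver was taken. Vector infection is therefore shared by both groups, no uninfected liver was analysed here, and each group is 1 array of 1 pool.

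Polo-like kinases carry a kinase domain followed by polo boxes, which in Plk1 dock the enzyme on targets already phosphorylated by another kinase. Plk1 drives entry into mitosis, centrosome maturation, spindle assembly and the abscission of daughter cells, and Plk4 starts the duplication of centrioles. Plk2 and Plk3 are known instead as genes induced by serum, DNA damage and other stress. Aurora A acts at centrosomes and along the spindle, where binding by Tpx2 switches it on, and it in turn activates Plk1 with the help of Bora. Nek2 loosens the linker that holds the centrosomes together, and Melk is an AMPK-related kinase found mostly in dividing cells. Adult hepatocytes rarely divide, and the mitotic members are normally little expressed in resting liver.

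The promoters of Plk1, Aurka, Nek2, Plk3 and Plk2 are shown here, and were picked with the values of these genes known. Those of Plk4 and Melk were searched as well but are not shown. Whether motifs go with the direction of a gene was not tested. The windows run from 250 bases before the annotated gene start to 50 bases after it, in the mouse assembly GRCm38.p6, and come from RefSeq. Windows were found for 7 of the 8 genes, and Tpx2 was not among them. Capitals mark matches, on either strand, to any of 8 short motifs that are spelled out after the sequences.
Plk1, chr7:122159185-122159484, plus strand: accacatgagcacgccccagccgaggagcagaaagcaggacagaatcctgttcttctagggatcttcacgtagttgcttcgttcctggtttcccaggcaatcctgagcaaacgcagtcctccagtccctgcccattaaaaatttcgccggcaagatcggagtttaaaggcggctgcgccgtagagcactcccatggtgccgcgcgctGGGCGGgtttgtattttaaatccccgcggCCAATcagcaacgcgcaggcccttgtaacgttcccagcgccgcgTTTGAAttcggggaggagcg
Aurka, chr2:172370521-172370820, minus strand: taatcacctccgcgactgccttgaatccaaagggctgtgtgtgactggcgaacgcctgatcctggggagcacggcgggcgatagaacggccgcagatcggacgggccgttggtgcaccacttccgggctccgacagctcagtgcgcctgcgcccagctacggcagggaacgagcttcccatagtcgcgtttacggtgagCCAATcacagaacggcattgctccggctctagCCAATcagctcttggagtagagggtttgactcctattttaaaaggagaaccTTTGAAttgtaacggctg
Nek2, chr1:191821223-191821522, plus strand: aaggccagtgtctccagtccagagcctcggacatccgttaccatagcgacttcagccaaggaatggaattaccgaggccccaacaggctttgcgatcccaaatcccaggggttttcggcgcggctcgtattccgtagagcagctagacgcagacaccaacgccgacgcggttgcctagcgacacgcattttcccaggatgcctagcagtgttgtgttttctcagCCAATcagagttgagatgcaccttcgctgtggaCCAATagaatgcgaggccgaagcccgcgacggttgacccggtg
Plk3, chr4:117133914-117134213, minus strand: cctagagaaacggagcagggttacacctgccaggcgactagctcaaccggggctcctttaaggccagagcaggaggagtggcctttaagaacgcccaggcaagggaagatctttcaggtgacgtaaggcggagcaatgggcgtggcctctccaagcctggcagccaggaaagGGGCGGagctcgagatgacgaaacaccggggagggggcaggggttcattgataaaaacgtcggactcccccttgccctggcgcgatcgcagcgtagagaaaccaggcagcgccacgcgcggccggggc
Plk2, chr13:110394794-110395093, plus strand: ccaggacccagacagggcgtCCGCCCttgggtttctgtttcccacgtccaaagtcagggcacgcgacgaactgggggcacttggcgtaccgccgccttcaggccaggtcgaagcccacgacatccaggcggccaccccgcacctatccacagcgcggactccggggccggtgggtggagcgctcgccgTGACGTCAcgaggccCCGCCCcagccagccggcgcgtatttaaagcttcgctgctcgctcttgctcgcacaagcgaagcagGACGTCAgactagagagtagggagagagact

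The motifs searched were TTTGAA, known as the cell cycle genes homology region, and its variant TTCGAA, the CCAAT box, the GC box GGGCGG, the E2F core TTCGCGC with its variant TTGGCGC, then TGACGTC, which is part of the cyclic AMP response element, and the TATA box, written TATAAA. The first of these, TTTGAA, occurred in 2 of the 7 windows, those of Plk1 (bases 31 to 36 after the start) and Aurka (bases 33 to 38), and in 17.9% of all 32851 promoter windows of this length. CCAAT occurred in 3 windows, and in 37.4% of all. In the Plk1 window it began 14 bases before the start, in the Aurka window 51 and 19 bases before it, and in the Nek2 window 26 bases before and 8 bases after it. GGGCGG was found in the windows of Plk1, Plk2, Plk3 and Melk, and in 35.7% of all windows. TGACGTC was found in the Plk2 window only among the 7, where the forward and reverse matches beginning 62 and 61 bases before the start overlap and another match begins 20 bases after it. It was found in 3.21% of all windows. The variant TTCGAA, both E2F cores and the TATA box had 0 matches in these 7 windows, and the Plk4 window had none of the 8 motifs. A match is a run of letters and says nothing about binding.

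Of the 6 members known mainly from mitosis, 5 were at least 2-fold higher in the pool labelled Ad-PDK4, while stress-induced Plk3 was lower and Plk2 lay close to the array median. In pooled whole liver, more or fewer cells of a type and more or less RNA per cell cannot be told apart. Among all 12121 genes that reached the detection floor described next on at least 1 array, 3.58% passed 2-fold upward and 0.891% downward. Signals are the deposited linear intensities. Differences are on the log2 scale, Ad-PDK4 minus Ad-control, set to 0 at the median of the probe sets measured on both arrays. The 50th percentile of an array served as its floor, and stood at 99.9 for the Ad-PDK4 array and 93.4 for the Ad-control array. Where a gene reached the floor on 1 array only, its difference is a bound, written "at least N-fold". Of the members, 4 lay above the floor on both arrays and 4 on the Ad-PDK4 array only.

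Pdk4, the gene carried by the vector, had a signal of 177 in the Ad-PDK4 pool and 234 in the Ad-control pool, a log2 difference of -0.39 on its only probe set. The sources used here do not say whether that probe set reads the vector transcript, so it does not check the labels, and every direction below is that of the library labelled Ad-PDK4.

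**Figure D1:**
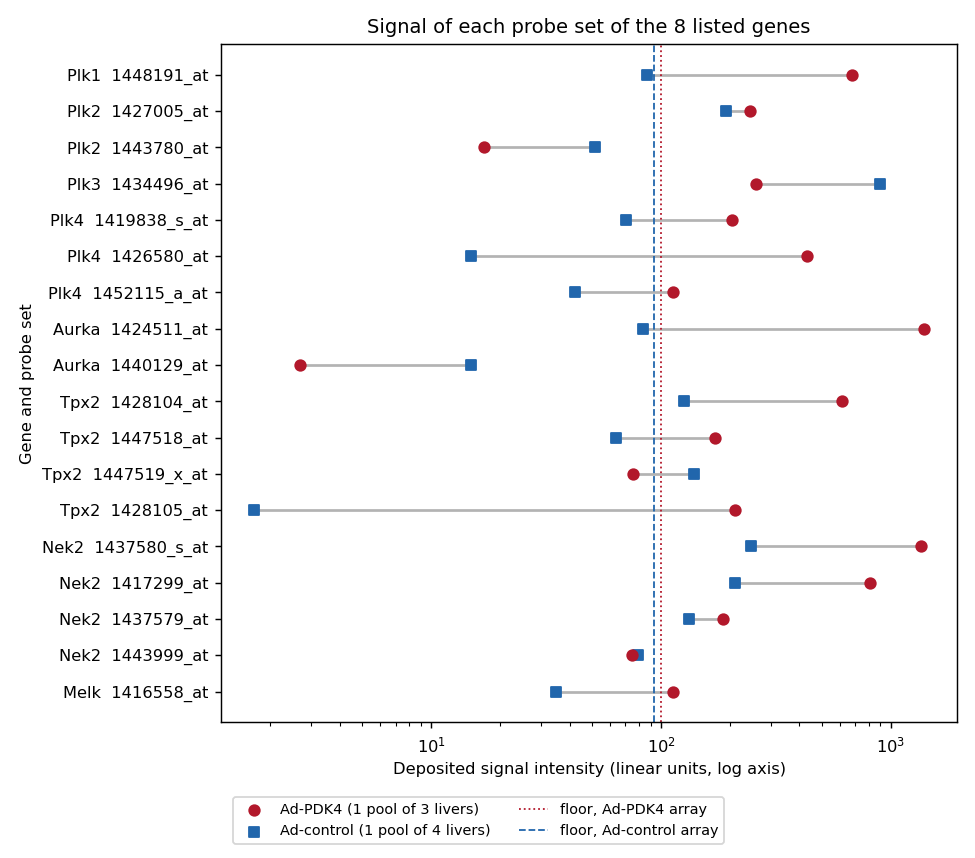
Deposited signal (linear units, log axis) of the 18 probe sets of the 8 genes, with circles for the Ad-PDK4 pool, squares for the Ad-control pool and vertical lines for the floor of each array. The Plk1, Plk4 and Melk probe sets and the bright Aurka probe set lie under the control floor on the Ad-control array, and Plk3 is the bright probe set that is lower in the Ad-PDK4 pool.

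Plk1 was measured by a single probe set (1448191_at). Its signal was 680 in the Ad-PDK4 pool and 86.8 in the Ad-control pool, so that the control lay just under its floor. The bound was a log2 difference of at least 2.88, or at least 7.35-fold higher, and the measured signals themselves differed by 2.98. Among the 947 genes above the floor on the Ad-PDK4 array only, this was the 11th largest bound, and 16.3% of those genes had bounds of 2-fold or more. Plk1 has no further probe set against which to read this value.

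By value or bound on the brightest probe set, Aurka stood highest of the 8, although a bound does not settle which gene differed most. Its probe set 1424511_at gave a signal of 1392 in the Ad-PDK4 pool and 83.4 in the Ad-control pool, a bound of at least 15.1-fold that ranked 4th among the same 947 genes. The measured log2 difference was 4.08. Its other probe set (1440129_at) stayed under the floor on both arrays, with a signal of 2.7 in the Ad-PDK4 pool and 14.9 in the Ad-control pool, so it carries no difference. The direction for Aurora A therefore rests on a single probe set.

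Tpx2, which binds Aurora A and holds it in its active form, was higher as well. The brightest of its 4 probe sets had a signal of 614 in the Ad-PDK4 pool and 125 in the Ad-control pool, a log2 difference of 2.31 (4.95-fold). It ranked 49th highest of 10389 genes measured on both arrays. The SD of the difference over the 500 genes closest to Tpx2 in mean signal was 0.51.

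The other Tpx2 probe sets did not all point the same way. Probe set 1428105_at had a signal of 209.6 in the Ad-PDK4 pool and 1.7 in the Ad-control pool, a bound of at least 2.27-fold higher, and 1447518_at, with 171 in the Ad-PDK4 pool and 64.0 in the Ad-control pool, one of at least 1.85-fold higher. Probe set 1447519_x_at went the other way, with a signal of 75.4 in the Ad-PDK4 pool, under its floor, and 139 in the Ad-control pool, at least 1.38-fold lower. The suffixes _x_at and _s_at mark probe sets that can match several transcripts.

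Nek2 was above the floor on both arrays in 3 of its 4 probe sets, more than any other member. Probe set 1437580_s_at had a signal of 1349 in the Ad-PDK4 pool and 247 in the Ad-control pool, a log2 difference of 2.47 (5.53-fold) that ranked 41st highest. Probe set 1417299_at had 808 in the Ad-PDK4 pool and 209 in the Ad-control pool, a difference of 1.96 (3.90-fold). Probe set 1437579_at had 185 in the Ad-PDK4 pool and 132 in the Ad-control pool, a difference of 0.51. All 3 were higher, over a range wider than the pooled SD between probe sets of the same gene, which was 0.35 over 4326 genes. The last, 1443999_at, was under the floor on both arrays (74.6 in the Ad-PDK4 pool and 79.5 in the Ad-control pool).

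Plk4 was under the control floor in all 3 of its probe sets. Probe set 1419838_s_at, the brightest by its mean log2 signal, had 204 in the Ad-PDK4 pool and 70.4 in the Ad-control pool, at least 2.21-fold higher. Probe set 1426580_at had 430 in the Ad-PDK4 pool and 14.9 in the Ad-control pool, at least 4.65-fold higher, and 1452115_a_at had 113 in the Ad-PDK4 pool and 42.3 in the Ad-control pool, at least 1.22-fold higher. The 3 probe sets agreed in direction and differed in the size of their bounds.

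Melk was barely measured. Its only probe set had a signal of 113 in the Ad-PDK4 pool, just above the floor, and 35.1 in the Ad-control pool, so the bound was at least 1.22-fold higher and did not reach 2-fold. The measured log2 difference of 1.70 has a dim signal on both sides. Under a 30th percentile floor the bound was a log2 difference of 1.66, so whether Melk counts as 2-fold higher depends on the floor.

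Plk3 differed in the opposite direction from Plk1. Its only probe set (1434496_at) had a signal of 258 in the Ad-PDK4 pool and 900.5 in the Ad-control pool, above the floor on both arrays, a log2 difference of -1.79 (3.45-fold lower). It ranked 5th lowest of 10389 genes. The SD over the 500 genes closest in mean signal was 0.48.

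Plk2, the other stress-induced member, had a signal of 243 in the Ad-PDK4 pool and 192 in the Ad-control pool on its probe set 1427005_at. The log2 difference was 0.36 (1.28-fold), about the size of the SD between probe sets of a gene and smaller than the SD of 0.60 over the 500 genes closest in mean signal. Plk2 is thus given as a value with no direction read from it. Its other probe set (1443780_at) was under the floor on both arrays, with 17.0 in the Ad-PDK4 pool and 51.5 in the Ad-control pool.

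Set against each other within the same arrays, a constant shift of an array cancels out of the differences. Plk1 exceeded Plk3 by a log2 difference of at least 4.67 and Plk2 by at least 2.52. The stress-induced pair also stood apart, with Plk2 above Plk3 by 2.15. Under a 70th percentile floor the Plk1 minus Plk3 bound was 2.89, and Plk2 had no value because it lay under the floor on both arrays.

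**Figure D2:**
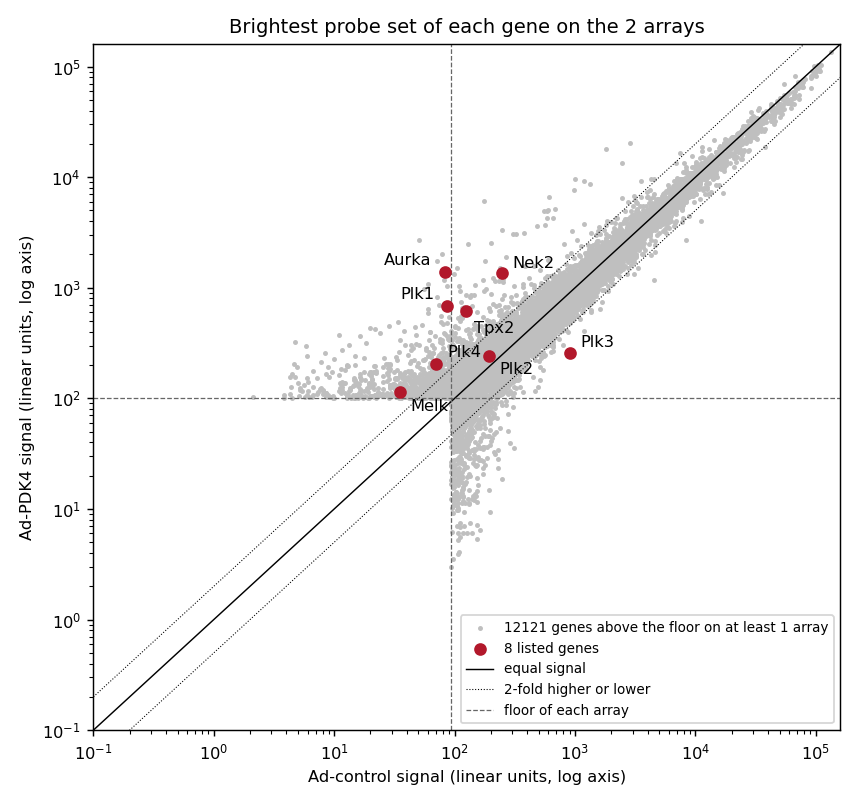
Signal of the brightest probe set of each of 12121 genes on the Ad-PDK4 array (vertical, log axis) and the Ad-control array (horizontal, log axis), with the 8 listed genes in red, the equal signal line and the 2-fold lines. Aurka, Plk1, Nek2, Tpx2, Plk4 and Melk lie above the upper 2-fold line by their measured signals, Plk2 lies near the equal line and Plk3 below the lower 2-fold line.

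In all, 5 of the 8 members were at least 2-fold higher by value or bound and 1 was at least 2-fold lower. Plk2 was within 2-fold. Melk had a bound under 2-fold, which gives only its smallest difference and does not place it within 2-fold. Since the members were listed with these differences known, nothing is read from the gap to the shares over all genes. The median over the 8, with bounds counted, was a log2 difference of 1.72, and over all 12121 genes it was 0.022. By probe set, 8 of 18 were at least 2-fold higher, 1 was at least 2-fold lower, and 3 were under the floor on both arrays. The same shares over all probe sets were not computed, so these counts only describe the members.

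The liver identity of both pools was checked on markers. Among all 12121 genes, 11% passed 1.5-fold upward and 5.58% downward. All 7 matched hepatocyte markers were within 1.5-fold, with a summed signal of 508555 in the Ad-PDK4 pool and 537327 in the Ad-control pool. Exocrine pancreas markers moved with the mitotic genes: 9 of 9 measured were at least 2-fold higher, with log2 differences from 2.47 to 3.46 and a summed signal of 83248 in the Ad-PDK4 pool and 10575 in the Ad-control pool. Skeletal muscle markers were lower by at least 1.5-fold in 5 of 6, with a summed signal of 2296 in the Ad-PDK4 pool and 4488 in the Ad-control pool. The part of either tissue in the values of the 8 genes was not tested. None of the matched markers had a deposited signal of 0 on the probe set used. The ratio of 3' to 5' signal of beta-actin, a sign of RNA integrity, was 5.46 in the Ad-PDK4 pool and 4.88 in the Ad-control pool, and that of Gapdh was 0.806 in the Ad-PDK4 pool and 0.785 in the Ad-control pool. The ratio of Pcx, pyruvate carboxylase, ran the other way, at 7.96 in the Ad-PDK4 pool and 9.26 in the Ad-control pool. Beta-actin and Pcx thus had several times more 3' than 5' signal on both arrays. The part of this 3' excess in the values of single probe sets was not tested.

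Markers of blood and immune cells that could divide in liver were set beside the kinases in the same way. Among 5 measured neutrophil markers, 3 passed 1.5-fold upward and 0 downward, and of 5 measured erythroid precursor markers 1 was higher and 0 lower. Summed signals include the markers under the floor on both arrays. Over the 8 neutrophil markers on the array the sum was 1081 in the Ad-PDK4 pool and 917 in the Ad-control pool. Over the 7 erythroid ones it was 4453 in the Ad-PDK4 pool and 3897 in the Ad-control pool. Macrophage markers gave 0 higher and 2 lower of 7, and T and NK cell markers lay within 1.5-fold in 4 of 4. Of 4 measured B and plasma cell markers, the 3 above the floor on both arrays lay within 1.5-fold, and Ms4a1 had a bound of -0.51. Of 6 endothelial markers 1 was higher and 1 lower, and of 6 stellate cell markers 1 was higher and 0 lower. Of 2 measured bile duct markers, Epcam lay within 1.5-fold and Krt19 had a bound of -0.28 (signal 16.9 in the Ad-PDK4 pool and 122.9 in the Ad-control pool). The 3 measured fetal liver markers had bounds only, none of which reached 1.5-fold. Such bounds give only the smallest difference. Their part in the result was not tested.

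Relatives of the members outside the list gave few usable values. Aurkb, Aurora kinase B of the chromosomal passenger complex, had a signal of 282 in the Ad-PDK4 pool and 45.3 in the Ad-control pool on one probe set, at least 3.05-fold higher, and 283 in the Ad-PDK4 pool and 35.0 in the Ad-control pool on the other, at least 3.06-fold. Aurkc, known mainly from germ cells, was under the floor on both arrays (12.5 in the Ad-PDK4 pool and 75.7 in the Ad-control pool). Plk5, a polo-like relative known mainly from brain, had 98.4 in the Ad-PDK4 pool, under the floor, and 139 in the Ad-control pool, at least 1.38-fold lower.

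Genes nearest to a member in the plane of the log2 signals of the 2 arrays were picked by distance alone. For Plk1 they were Cdkn3, a phosphatase that acts on Cdk1 and Cdk2 (distance 0.23, signal 704 in the Ad-PDK4 pool and 74.5 in the Ad-control pool), Spink1, a secreted trypsin inhibitor (distance 0.33, signal 542 in the Ad-PDK4 pool and 90.3 in the Ad-control pool), and Esco2, a cohesin acetyltransferase (distance 0.35, signal 550 in the Ad-PDK4 pool and 77.3 in the Ad-control pool). For Plk3 they were Wdtc1 (0.29), Cyp26a1, which degrades retinoic acid (0.45), and Cd99l2 (0.48). For Plk2, in the dense middle of the plot, Ift88, Dlg5 and Ap3s2 lay within 0.025. Distances over 2 arrays describe signal and difference only.

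**Figure D3:**
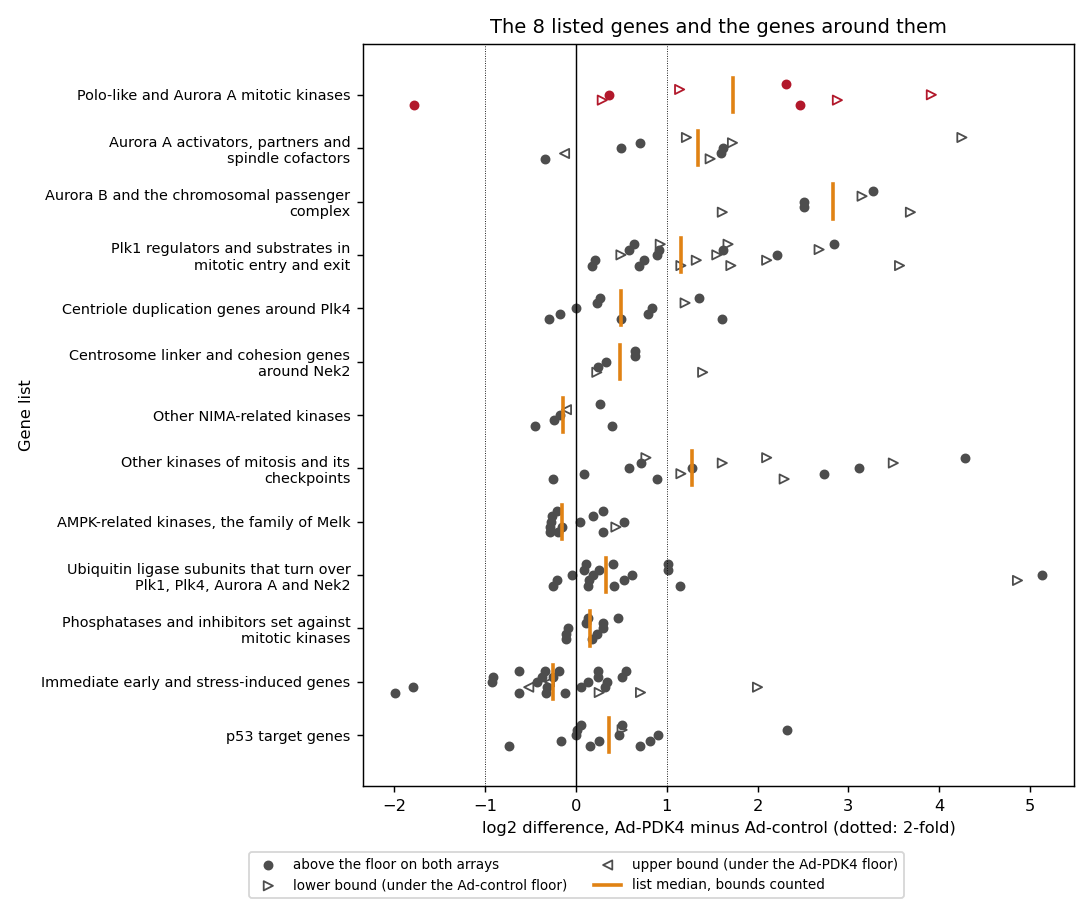
Log2 difference, Ad-PDK4 minus Ad-control, of the 8 listed genes (top row, red) and of 12 gene lists around them, with filled points for genes above the floor on both arrays, open triangles for bounds and an orange bar for the median of each list. The chromosomal passenger list has the highest median of the 12 (2.83), and the other NIMA-related kinases and AMPK-related kinases sit around 0.

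The activators and spindle partners of Aurora A were mostly higher in the Ad-PDK4 pool. Of 12 listed genes, 10 were matched and above the floor on at least 1 array, and 7 of these were at least 1.5-fold higher and 0 lower. Over all genes the shares were 11% upward and 5.58% downward. This list and those below were chosen with earlier results of these data known, so nothing is read from the gap. The median log2 difference of the 10 partners was 1.35, or 0.20 under a 70th percentile floor. Bora, the cofactor through which Aurora A activates Plk1, had a signal of 292 in the Ad-PDK4 pool and 96.4 in the Ad-control pool, a log2 difference of 1.61, and Dlgap5, a spindle protein stabilised by Aurora A, one of 1.59. Ckap5, a microtubule polymerase, gave 0.71, and Cep192, a centrosomal scaffold for Aurora A and Plk4, gave 0.50. Hmmr, which brings Tpx2 to spindle poles, and the kinesin Kif11 had bounds of at least 4.25 and 1.72, and a further Hmmr probe set gave 2.31. Ajuba, an Aurora A activator of cell adhesion sites, was the lowest at -0.34.

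The list of Aurora B and its complex also holds Kif20a and Cdca2, which are not subunits of the complex. The list had a median log2 difference of 2.83, the highest of the 12 lists around the members. All 6 measured genes of the list were at least 2-fold higher. The median was 1.56 under a 70th percentile floor and 1.81 with log2(signal + 100). The exocrine pancreas markers had a median of 2.98. Birc5 (survivin) had a log2 difference of 3.27, and Cdca8 (borealin) and Incenp, the scaffold, had 2.51 each, although the other measured probe set of Incenp gave 0.85. Kif20a, which recruits Plk1 to the spindle midzone, had a bound of at least 3.68, and Cdca2, a targeting subunit of a protein phosphatase, one of at least 3.15.

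Of 23 regulators and substrates of Plk1, 21 were measured and 17 were at least 1.5-fold higher, 0 lower and 4 within 1.5-fold, with a median log2 difference of 1.16. Several of the highest act in cytokinesis. Anln, which links actin to the cleavage furrow, gave 2.84 (signal 1051 in the Ad-PDK4 pool and 148.5 in the Ad-control pool), Racgap1 gave 2.21, and Prc1, the docking protein of Plk1 at the midzone, and Ect2, which acts in cytokinesis, had bounds of at least 3.56 and 2.68. Fbxo5, an inhibitor of the anaphase-promoting complex that Plk1 marks for destruction, gave 0.21, and Nudc gave 0.18. Cdc25b and Cdc25c, phosphatases that activate Cdk1, were under the floor on both arrays. Under a 70th percentile floor the median was 0.44.

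The genes that work with Plk4 in centriole duplication differed less. Of 13 listed, 11 were measured, and 5 of these passed 1.5-fold upward and 0 downward, and the median was 0.50, or 0.074 under a 70th percentile floor. Haus8, an augmin subunit, gave 1.61, Ccp110, which caps centrioles, gave 1.35, and Poc5 gave 0.84. Sass6, which forms the cartwheel of a new centriole, had a bound of at least 1.20. Cntrob (-0.30) and Cep63 (-0.17) were the lowest, and Stil and Cep135 were under the floor on both arrays.

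Around Nek2, 6 of 9 genes listed for the centrosome linker, its regulation and other Nek2 targets were measured. Of these, 3 were at least 1.5-fold higher, Ndc80 among them, and 0 lower. Ndc80, a kinetochore protein that Nek2 phosphorylates, had a bound of at least 1.39 (signal 243 in the Ad-PDK4 pool and 5.9 in the Ad-control pool). Cntln and Lrrc45, parts of the linker, gave 0.65 each, Cep68 gave 0.33 and Cep85, an inhibitor of Nek2, gave 0.24. Cdk5rap2 had a bound of 0.23. Cep250 and Crocc, the main linker proteins and Nek2 substrates, were under the floor on both arrays.

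The kinase families to which Nek2 and Melk belong lay close to the array median where they were measured on both arrays. Of 6 measured other NIMA-related kinases, the 5 above the floor on both arrays were within 1.5-fold. They ran from Nek4 (-0.45) and Nek7 (-0.24) to Nek6 (0.27) and Nek3 (0.39), while Nek9 gave -0.17. Nek8 had a bound of -0.10, which gives only its smallest difference. Of 13 measured AMPK-related kinases, the 12 above the floor on both arrays were within 1.5-fold. They ran from Sik2 and Mark1 (-0.29 each) to Prkaa1 (0.29), Mark3 (0.30) and Mark4 (0.52). Brsk1 had a bound of 0.44 (signal 125.4 in the Ad-PDK4 pool and 6.6 in the Ad-control pool), which does not show it to be within 1.5-fold. The list medians of -0.14 and -0.15 turned to 0.31 and 0.36 when the poly-A spike-in controls served as the reference, so their sign depends on it. The spike-in controls had a median log2 difference of -0.51, which moves every gene by that amount.

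Other kinases of mitosis and their cyclins were higher in 12 of 15 measured cases by at least 1.5-fold, and 0 were lower. Their median was 1.28, or 0.70 under a 70th percentile floor and 1.98 under a 30th percentile one. Cdk1, the kinase that drives mitotic entry, had a signal of 4298 in the Ad-PDK4 pool and 655 in the Ad-control pool (log2 difference 2.73), and its cyclins Ccnb2 and Ccna2 gave 4.28 and 3.11. Pbk, a kinase of dividing cells, had a bound of at least 3.49, and Ttk, of the spindle checkpoint, one of at least 2.29. Vrk1, a chromatin kinase, gave 0.088 and Cit, citron kinase of the midbody, -0.25. Haspin and Cdc7 were under the floor on both arrays.

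The ubiquitin ligases that remove Plk1, Aurora A, Nek2 and Plk4 were a mixed group, with 6 of 18 at least 1.5-fold higher, 0 lower and 12 within 1.5-fold. Cdc20, the mitotic activator of the anaphase-promoting complex, gave 5.13 and Ube2c, its ubiquitin-conjugating enzyme, had a bound of at least 4.86. Among core subunits Anapc5 gave 1.15 (0.65 to 1.15 over 6 probe sets) and Cdc23 gave 1.02, with 0.044 on its other probe set. Fbxw11 (-0.25) and Skp1 (-0.21), of the SCF ligases that remove Plk4, were the lowest. Btrc, of the same ligases, was higher at 0.61, with 1.11 on its other measured probe set. The phosphatases that oppose mitotic kinases were within 1.5-fold in 10 of 10 cases. Ppp1cc gave 0.47, Ppp2r2d gave 0.30 and Ppp1ca gave 0.29, and Ppp2r2a and Ppp1cb gave -0.10 each.

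The stress-induced setting of Plk2 and Plk3 was described with 30 immediate early and stress genes, of which 27 were measured. By value or bound, 2 were at least 1.5-fold higher and 6 lower. The other 19 include bounds, which give only the smallest difference and do not show a gene to be within 1.5-fold. These were Atf3 (-0.52, signal 12 in the Ad-PDK4 pool and 144.7 in the Ad-control pool), Klf4 (-0.29) and Fos (0.26). The median was -0.25, and 0.26 with the spike-in reference. Csrnp1 (-1.99) and Hes1 (-1.79) were the lowest of those above the floor on both arrays, beside Plk3. Junb (0.55), Myc (0.51) and Ier3 (0.34) were the highest measured on both arrays, and Gadd45b and Egr3 had bounds of at least 2.00 and 0.71. Plk2 and Plk3 are also described as targets of p53. Of 14 measured p53 targets, 4 were at least 1.5-fold higher and 1 lower, from Cdkn1a (2.33), Phlda3 (0.91) and Aen (0.82) to Bbc3 (-0.17) and Fas (-0.74), and Eda2r had a bound of 0.51. Their median was 0.37, and 0.88 with the spike-in reference. These counts depend on the probe set taken. Over their probe sets, Ccng1 ran from 0.48 to 0.98, Trp53inp1 from 0.055 to 0.91, Mdm2 from -0.004 to 0.64 and Sesn1 from -0.86 to 0.26.

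The values of the 8 genes were recomputed under 10 alternative ways of processing. Depending on these, 4 to 6 members were at least 2-fold higher, and Plk3 was the 1 member at least 2-fold lower under each of them. Aurka, Plk1, Tpx2 and Nek2 were at least 2-fold higher under all 10, Plk4 under the 9 that gave it a value, and Melk only under a 30th percentile floor or log2(signal + 16).

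**Figure D4:**
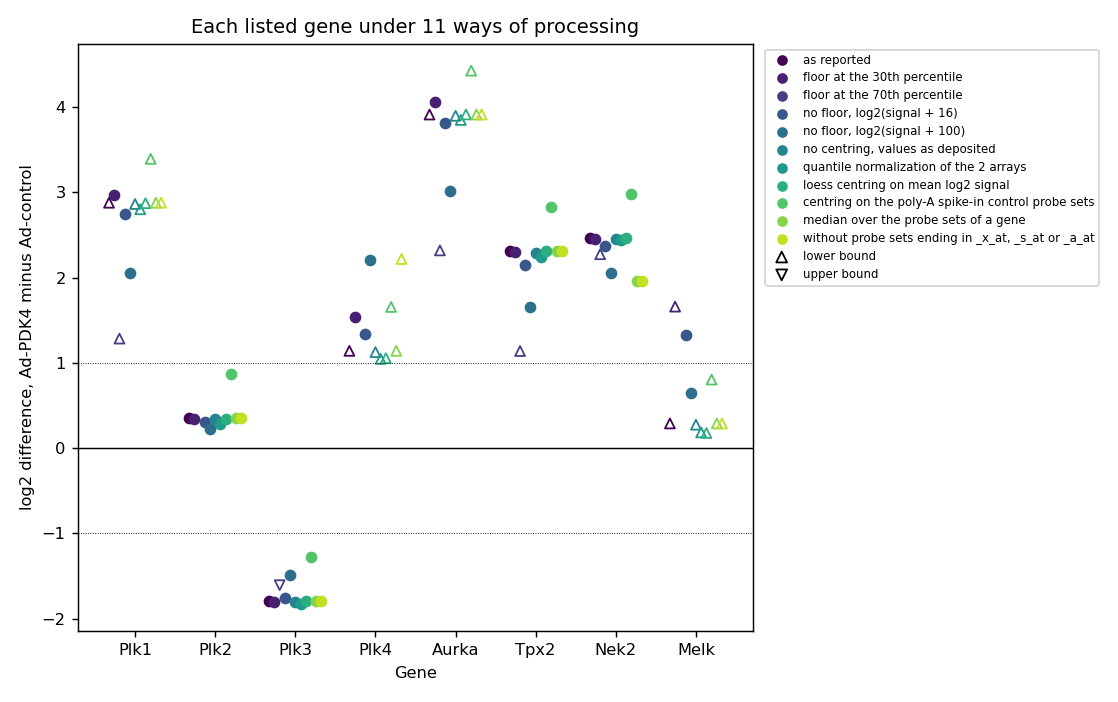
Log2 difference, Ad-PDK4 minus Ad-control, of each of the 8 listed genes as reported and under 10 alternative ways of processing, with filled points for values and open triangles for bounds. Plk3 stays between -1.83 and -1.27, Plk2 between 0.23 and 0.87, and the bounds of Aurka and Plk1 fall to 2.32 and 1.28 under a 70th percentile floor.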

How the data were processed

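RNA from the pooled livers was labelled as biotinylated cRNA and hybridised to Affymetrix arrays, per the labels. The deposited table gives 1 signal intensity per probe set, and how the authors summarised and background-corrected them was not stated there. The deposited intensities are linear, and their mean, trimmed of 2% at either end, is 500.004 on the Ad-PDK4 array and 500.005 on the Ad-control array, so each array has been scaled to a common level. Their number, 2, limits the precision.

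Of 45101 probe sets, 64 were controls and 34945 carried a single gene symbol of the platform annotation. Those with several symbols (932) were not named. The Entrez identifiers of all 8 members matched RefSeq (GRCm38.p6). Signals were put on the log2 scale and differences centred on the median (-0.015) over 20151 probe sets. For a gene with several probe sets, the one of highest mean log2 signal stands for it. With no replicates no p-value was computed, and the SD between probe sets of a gene leaves out the variation between mice and between labellings. Members and lists were chosen with earlier results of these data known, and some genes stand in more than 1 list. The genes named from a list were its 3 highest and 2 lowest among those above the floor on both arrays and its 2 largest bounds. Further genes were named for their bounds, for probe sets that differed or for being under the floor. The calculations were tested on simulated data with differences placed in bright genes only, so the handling of bounds near the floor was not checked. Alternatives covered the floor, pseudocounts, centring and the choice of probe sets. Python 3.11.15, pandas 2.3.3 and statsmodels 0.14.6 were used.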

Additional observations from a re-analysis of the deposited data

How the results depend on the processing

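No paired analysis was possible because each group is 1 array. Across 10 alternatives every value of the 8 genes that could be computed kept its direction; under a 70th percentile floor the brightest probe sets of Plk2, Plk4 and Melk were under it on both arrays and gave no value. The number of members at least 2-fold higher ranged from 4 to 6 and the number at least 2-fold lower was 1 throughout. The values below moved by more than the probe set SD. Under a 30th percentile floor Plk4 was at 1.54 and Melk at 1.66. Under a 70th percentile floor, Plk1 was at 1.28, Aurka at 2.32, Tpx2 at 1.14 and Plk1 minus Plk3 at 2.89, since the control level of a bound is the floor itself. With log2(signal + 16) Melk was at 1.33. With log2(signal + 100), which compresses dim signals, Plk1 was at 2.06, Aurka at 3.02, Tpx2 at 1.66, Nek2 at 2.06 and Melk at 0.65. Plk4 was then at 2.20, since 1426580_at became its brightest probe set in place of 1419838_s_at. The contrasts were then 1.83 for Plk1 minus Plk2, 3.54 for Plk1 minus Plk3 and 1.72 for Plk2 minus Plk3. The spike-in reference moved every gene by the same amount, to 3.39 for Plk1, 0.87 for Plk2, -1.27 for Plk3, 1.66 for Plk4, 4.43 for Aurka, 2.82 for Tpx2, 2.98 for Nek2 and 0.80 for Melk. Nek2 was at 1.96 as the median of its probe sets. Without _x_at, _s_at and _a_at probe sets Nek2 was at 1.96 and Plk4 at 2.22. The numbers of all genes at least 2-fold higher and lower were 434 and 108 as reported, 1270 and 595 under a 30th percentile floor, 150 and 23 under a 70th percentile one, 1775 and 1223 with log2(signal + 16), 314 and 91 with log2(signal + 100), and 1774 and 12 with the spike-in reference.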
